A study of Mus musculus with 2 samples.

Results

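The genes described here are 10 regulators of fat and sterol synthesis, chosen by name out of the 24346 gene symbols listed in each library. They are Srebf1 and Srebf2, which encode SREBP-1 and SREBP-2, Scap, Insig1 and Insig2, which control where SREBPs reside in the cell, Mlxipl and Mlx, which encode ChREBP and its partner, Nr1h3 and Nr1h2, which encode LXR alpha and LXR beta, and Thrsp. RNA-seq was performed on entire omenta, the apron of abdominal fat that holds lymphoid clusters called milky spots, taken 5 days after diphtheria toxin (DT). One library (n = 1) came from wild-type (WT) mice given DT. The other (n = 1) came from Postn-DTR mice given DT, which carry the DT receptor in the first coding exon of a single Postn allele and were made in C57BL/6 zygotes. DT is directed in them at cells that use the Postn promoter, Aldh1a2+ fibroblastic reticular cells among them. The age of the mice and the number of mice behind each library are not given in the sources used here. Cells outside the omentum also use this promoter, and an enlarged cecum was seen in some of the Postn-DTR mice after DT. No library came from Postn-DTR mice without DT, so the allele and the loss of cells cannot be told apart.

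With 1 library per genotype there was no spread between replicates, no test of the genotypes and no p-value, and no difference below has a replicate check. The values are FPKM, fragments per kilobase of exon scaled to the mapped fragments of a library, which can be compared between genes because they are set per length. The change of a gene is its log2(FPKM + 1) in Postn-DTR less that in WT, which understates low genes, and folds of single genes are plain FPKM ratios. Counts of genes past a fold use the change. Each gene has a 95% counting interval on its fold, an exact Clopper-Pearson interval from estimated reads, which covers counting error only and not the difference between mice. Postn, the targeted gene, stood at an FPKM of 58.3 in the WT library and 16.2 in the Postn-DTR library, a 3.61-fold difference. Estimated denominators were about 23100000 fragments in WT and 24000000 in Postn-DTR. Among 13127 genes whose FPKM averaged at least 1 over both libraries, the median change was 0.02, and changes from -0.79 to 0.87 spanned the 5th to the 95th percentile. The WT library held transcripts of pancreatic acinar cells, which summed to 2.30% of all FPKM over 25 markers, against 0.00321% in Postn-DTR, where 6 of the 25 were listed at 0. Their part in the levels of the regulators was not tested.

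SREBPs are made as membrane proteins of the endoplasmic reticulum and are carried to the Golgi by SCAP, where proteases release the part that enters the nucleus. INSIG proteins hold SCAP in the endoplasmic reticulum when sterols are plentiful. SREBP-1c, the form prominent in fat and liver, drives fatty acid synthesis and responds to insulin, SREBP-2 drives cholesterol synthesis and uptake, ChREBP answers to sugar metabolites, and LXRs bind oxysterols and switch on cholesterol efflux genes as well as Srebf1. Insig1 is itself a target of SREBPs. Thrsp, also called Spot 14, is an abundant product of adipocytes that is induced by thyroid hormone, insulin and carbohydrate feeding together with the enzymes of fatty acid synthesis.

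All 10 regulators passed the expression minimum. Thrsp and Insig1 were at least 2-fold lower in Postn-DTR, and the other 8 lay within 2-fold. Of all genes compared, 3.12% were at least 2-fold lower and 3.88% at least 2-fold higher, and 0 of the 10 regulators were in the second class. The median change of the 10 was -0.19, beside 0.02 for all genes. At a 1.5-fold threshold Srebf1 and Srebf2 joined them, so that 4 of 10 were lower and 0 higher where the shares of all genes were 8.84% and 9.86%. At 3-fold, 2 of 10 were lower and 0 higher, where the shares were 1.17% and 1.52%. A change below 0, as deposited, was seen for 6 of 10 regulators and for 48.1% of all genes.

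**Figure D1:**
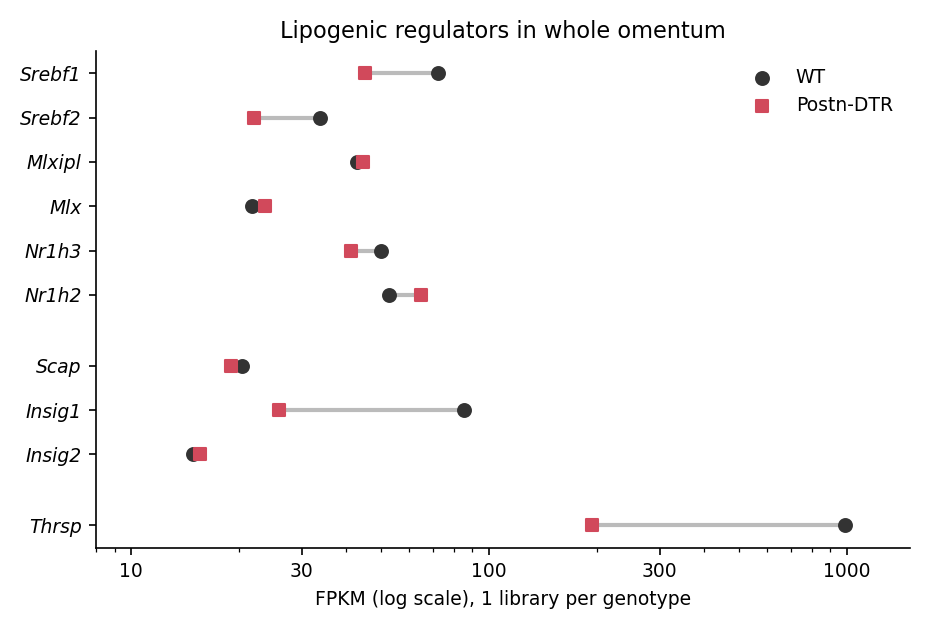
FPKM of the 10 regulators on a log axis, with a circle for the WT library and a square for the Postn-DTR library (1 library each) and a grey line joining them. The long lines are those of Thrsp, from 988.8 to 194.6, and Insig1, from 85.2 to 26.0, while the symbols of Mlxipl, Mlx, Insig2 and Scap nearly touch.

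Thrsp had by far the highest level of the 10 in both libraries. The WT library gave it an FPKM of 988.8 and the Postn-DTR library one of 194.6, 5.08-fold lower, with a counting interval of 4.93 to 5.24. The change was -2.34, and 70 of the 13127 genes compared had a more negative one. By level Thrsp ranked 82 among all genes in WT and 438 in Postn-DTR. It lies on chromosome 7 (ENSMUSG00000035686, 97412938 to 97417730 on the minus strand, GRCm38). Mid1ip1, which encodes the paralog of Thrsp, did not share this pattern, with 34.1 FPKM in the WT library and 41.6 in the Postn-DTR library. The level of Thrsp was thus 29.0 times that of Mid1ip1 in WT and 4.67 times that in Postn-DTR. Fasn, the fatty acid synthase with which Thrsp was level in WT at 977.9, was at 44.0 in Postn-DTR, so the ratio of Thrsp to Fasn went from 1.01 to 4.42.

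Insig1 (ENSMUSG00000045294, chromosome 5, 28071363 to 28078662 on the plus strand) was the second of the regulators past 2-fold. The WT library gave 85.2 FPKM and the Postn-DTR library 26.0, 3.28-fold lower, with a counting interval of 3.10 to 3.48 and a change of -1.68. A more negative change was seen in 133 genes, or 1.01% of those compared. In WT it was the most abundant regulator after Thrsp, and in Postn-DTR 4 others stood between them. Insig2 (ENSMUSG00000003721, chromosome 1, 121304353 to 121332589 on the minus strand) encodes the second INSIG and was the least abundant of the 10, with 14.9 FPKM in the WT library and 15.6 in the Postn-DTR library. Its change was 0.06, and its counting interval, a Postn-DTR to WT ratio of 0.903 to 1.21, included 1. The ratio of Insig1 to Insig2 within a library, which does not depend on how the libraries are scaled to each other, was 5.71 in WT and 1.66 in Postn-DTR. Scap (ENSMUSG00000032485, chromosome 9, 110333288 to 110384950 on the plus strand) was measured at 20.5 FPKM in the WT library and 19.1 in the Postn-DTR library, with a change of -0.10. Against Scap, their shared binding partner, Insig1 stood at 4.16 in WT and 1.36 in Postn-DTR.

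The sequence before Insig1 is shown because this was the SREBP-pathway regulator with the most negative change and because 2 of the motifs searched lie in it. The RefSeq start of the gene is at 28071412 and the GENCODE exon begins 49 bases before it, so the 201 bases that precede both are given, from chr5:28071162-28071362 on the plus strand of GRCm38. Capitals mark, in order, a CCAAT box on the other strand (ATTGG), which is the motif of NF-Y, a common partner of SREBPs, and an E-box (CACGTG), the core bound by basic helix-loop-helix factors, a class to which SREBPs, ChREBP and MLX belong.
Insig1: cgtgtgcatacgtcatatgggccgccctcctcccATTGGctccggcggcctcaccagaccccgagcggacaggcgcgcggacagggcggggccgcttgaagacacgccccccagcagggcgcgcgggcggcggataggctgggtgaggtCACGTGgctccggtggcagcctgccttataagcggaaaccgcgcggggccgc
The motifs were searched on both strands in the 250 bases before each RefSeq start, in 17 windows that covered all 10 regulators. A gene counted if any of its windows held the motif. All 27025 genes had 32851 windows, fewer per gene than the regulators had, so shares per gene tend to be higher for the regulators. A CCAAT box was found for 7 of the 10 regulators, and in 37.5% of all 27025 genes with such a window (33.85% of windows). The E-box CACGTG was found for 4 of 10, Insig1, Mlxipl, Mlx and Scap, and in 6.86% of all genes (6.02% of windows). The SRE core TCACNCCAC, a sterol regulatory element, was found for 1 of 10, Mlxipl, and in 1.23% of all genes (1.05% of windows). The DR4 element of LXRs, a direct repeat of AGGTCA with 4 bases between the copies, was found for 0 of 10 and in 4 genes of the whole set. The CCAAT box and the E-box of Insig1 did not overlap. A match describes the letters of a window and not the binding of a factor, and an absent match says only that these letters were not in that window.

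The other sites of interest are short and are given with 8 bases on each side, the motif in capitals. Those of Thrsp lie 79 and 52 bases before its RefSeq start, in a stretch that GENCODE places in the exon. Those of Mlxipl come from both of its starts, and the site of Mlx is shown because MLX is the partner through which ChREBP binds E-boxes.
Thrsp CCAAT box, other strand, chr7:97417617-97417637: acgctgggATTGGctcaaaac
Thrsp CCAAT box, gene strand, chr7:97417590-97417610: gtgttgctCCAATggttgggc
Mlxipl SRE core, chr5:135106747-135106771: cagtggttTCACACCACgctcactg
Mlxipl E-box, chr5:135089784-135089805: ctgccatcCACGTGctaaggag
Mlx E-box, chr11:101087242-101087263: ggttggatCACGTGactgagcc
The pair of regulators past 2-fold, Thrsp and Insig1, shared the CCAAT box and differed in the E-box, which of the pair only Insig1 had. The CCAAT box was also found for Insig2, Mlx, Mlxipl, Srebf1 and Srebf2, all within 2-fold as deposited, so it did not set the pair apart. Insig2, which lay close to its WT level, held 3 CCAAT boxes in its window farthest upstream and no E-box.

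With FPKM as deposited, the genes of both SREBPs were lower in Postn-DTR by similar amounts, short of 2-fold. This direction turned with the libraries scaled to equal levels of the adipocyte marker Plin1 (0.08 and 0.15). Srebf1 (ENSMUSG00000020538, chromosome 11, 60199089 to 60222581 on the minus strand) was measured at 72.3 FPKM in the WT library and 45.0 in the Postn-DTR library, 1.61-fold lower with a counting interval of 1.55 to 1.67. Its change was -0.67, with 6.91% of all genes more negative. Srebf2 (ENSMUSG00000022463, chromosome 15, 82147181 to 82205379 on the plus strand) was measured at 33.7 FPKM in the WT library and 22.1 in the Postn-DTR library, 1.53-fold lower with a counting interval of 1.45 to 1.61. The change was -0.59, with 8.73% of all genes more negative. The ratio of Srebf1 to Srebf2 was 2.15 in WT and 2.04 in Postn-DTR, so the balance between them differed little. Against Scap, the ratio of Srebf1 was 3.53 in WT and 2.36 in Postn-DTR. Srebf1 has 3 RefSeq starts, spaced 10156 and 1954 bases apart, from which the forms SREBP-1a and SREBP-1c arise, and the FPKM add them up, so the forms could not be compared. An intron of Srebf2 holds Mir33 on the same strand.

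**Figure D2:**
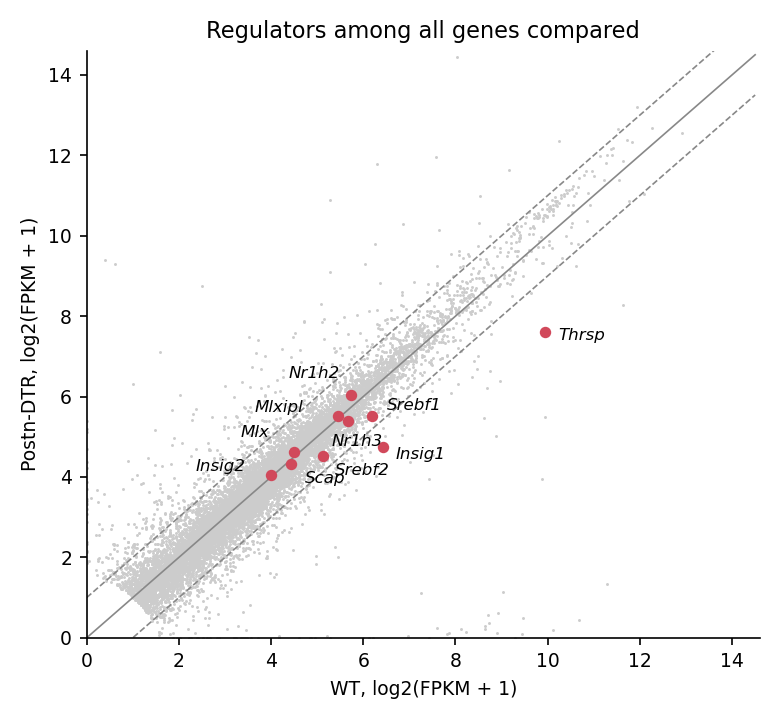
Level in Postn-DTR against level in WT, both as log2(FPKM + 1), for the 13127 genes compared (grey) and the 10 regulators (red, named), with the line of equal levels solid and the 2-fold lines dashed. Thrsp, with a change of -2.34, and Insig1, at -1.68, lie below the lower dashed line, and the other 8 lie between the dashed lines.

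The sugar-responsive factor and its partner were close to level. Mlxipl (ENSMUSG00000005373, chromosome 5, 135089890 to 135138382 on the plus strand) was measured at 42.9 FPKM in the WT library and 44.4 in the Postn-DTR library, with a change of 0.05. Its counting interval ran from a ratio of 0.988 to 1.09 and included 1. It has RefSeq starts 17001 bases apart, and ChREBP alpha and the shorter ChREBP beta, which arise from separate first exons, were not told apart by one value per gene. Mlx (ENSMUSG00000017801, chromosome 11, 101087277 to 101092207 on the plus strand) was measured at 21.8 FPKM in the WT library and 23.6 in the Postn-DTR library, with a change of 0.11 and a ratio interval of 0.988 to 1.20. Mlxip encodes MondoA, the relative of ChREBP that also pairs with MLX, and was at 13.2 FPKM in the WT library and 25.8 in the Postn-DTR library, with a change of 0.91. The ratio of Mlxipl to Mlx was 1.97 in WT and 1.88 in Postn-DTR, and that of Mlxipl to Mlxip was 3.24 and 1.72.

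The LXR genes had changes of opposite sign. Nr1h3 (ENSMUSG00000002108, chromosome 2, 91184061 to 91202834 on the minus strand), the LXR of adipocytes, macrophages and liver, was measured at 50.0 FPKM in the WT library and 41.1 in the Postn-DTR library, 1.22-fold lower with a counting interval of 1.14 to 1.30. Nr1h2 (ENSMUSG00000060601, chromosome 7, 44549616 to 44553951 on the minus strand), the LXR found in most tissues, was measured at 52.6 FPKM in the WT library and 64.8 in the Postn-DTR library, a ratio of 1.23 with a counting interval of 1.16 to 1.30. The changes were -0.28 and 0.30. Nr1h3 was therefore at 0.950 times the level of Nr1h2 in WT and at 0.634 times in Postn-DTR. The sign of neither change held under every scaling: that of Nr1h3 was 0.07 with adipocyte markers set equal, and that of Nr1h2 was -0.042 with acinar genes removed and totals made equal.

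**Figure D3:**
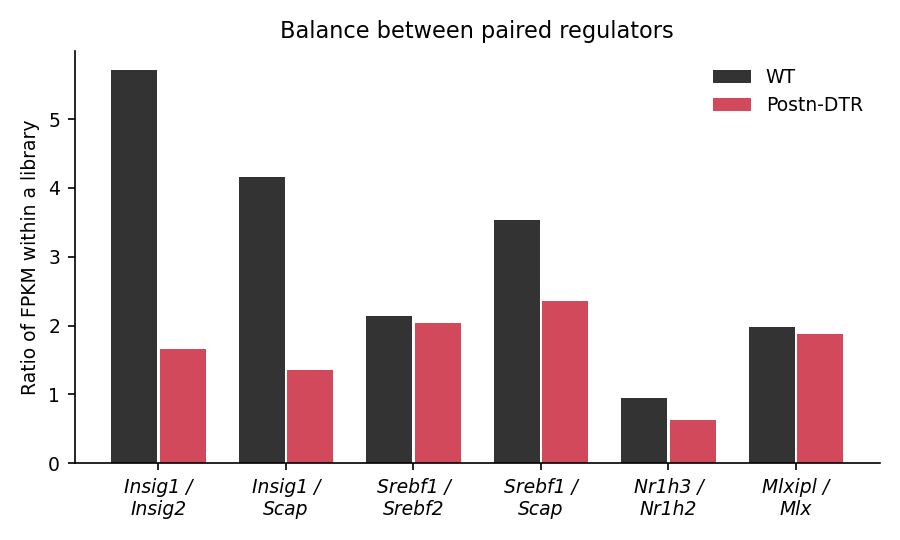
Ratio of the FPKM of paired regulators within the WT library (black) and within the Postn-DTR library (red), 1 library each, on an axis from 0. Insig1 to Insig2 stands at 5.71 and 1.66 and Insig1 to Scap at 4.16 and 1.36, while Srebf1 to Srebf2 (2.15 and 2.04) and Mlxipl to Mlx (1.97 and 1.88) are nearly level.

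By level, the order in WT was Thrsp, Insig1, Srebf1, Nr1h2, Nr1h3, Mlxipl, Srebf2, Mlx, Scap and Insig2. In Postn-DTR it was Thrsp, Nr1h2, Srebf1, Mlxipl, Nr1h3, Insig1, Mlx, Srebf2, Scap and Insig2. The ends of the order were the same, and Insig1 moved 4 places down. Nr1h2 and Nr1h3 in WT, at 52.6 and 50.0, were neighbours whose order cannot be judged without replicates, as were Srebf1 and Mlxipl in Postn-DTR, at 45.0 and 44.4. The lowest estimated number of reads behind a regulator was 363 in WT and 394 in Postn-DTR, both for Insig2, so counting error was small beside the differences of Thrsp and Insig1.

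How the libraries are scaled to each other mattered for the small changes and not for the direction of Thrsp, Insig1 or the list of fatty acid enzymes. The deposited FPKM added up to 542190 in the WT library and 671882 in the Postn-DTR library, so equal totals alone multiply the Postn-DTR values by 0.807, and by 0.789 with acinar genes removed as well. With the second of these, the median of all genes moved by -0.30, Thrsp was at -2.68, Insig1 at -2.01 and Srebf1 at -1.01, just past 2-fold. In fat, adipocytes are the cells known for making Thrsp, and in whole tissue fewer cells of a type and less RNA per cell cannot be told apart. Of 10 adipocyte markers 6 had a change below 0 and 4 above, with a median of -0.35, 1 of them at least 2-fold lower and none at 0. Their summed FPKM was 8508 in WT and 9450 in Postn-DTR, or 1.57% and 1.41% of all FPKM, most of it Fabp4 (4879 and 6519), while Adipoq was at 955.2 and 635.9 and Plin1, the coat protein of lipid droplets, at 321.5 and 189.1. With the median ratio of these markers set to 1, the median of all genes moved by 0.32, and Thrsp was at -1.99, Insig1 at -1.33, Srebf1 at -0.32 and Srebf2 at -0.25. With Plin1 set equal, which moved the median of all genes by 0.69, Thrsp was at -1.58 and Insig1 at -0.94, no longer past 2-fold, Srebf1 was at 0.08 and Srebf2 at 0.15. The shares of all genes lower and higher by 2-fold were then 1.15% and 24.0%, against 1.83% and 7.996% with equal adipocyte markers and 5.68% and 2.27% with equal totals. Plin1 is 1 of the 10 markers and had a change of -0.76, below their median. Pnpla2 had the most positive change of them, 0.45 (362.3 in WT and 494.9 in Postn-DTR). Against the summed FPKM of the markers, Thrsp was 5.65-fold lower in Postn-DTR and Insig1 3.65-fold lower.

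**Figure D4:**
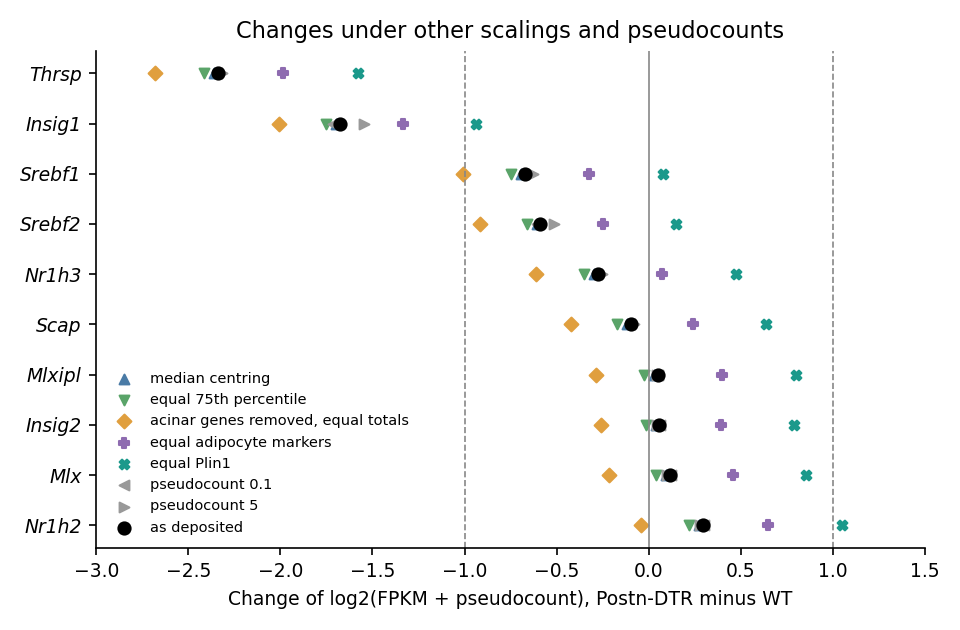
Change of each regulator on the log2 scale, negative where Postn-DTR was lower, with the FPKM as deposited (black) and under 5 other scalings and 2 other pseudocounts (coloured symbols), with dashed lines at 2-fold. Thrsp stays left of the lower dashed line under all settings drawn (up to -1.58) and Insig1 under all but equal Plin1 (-0.94), Srebf1 reaches it with acinar genes removed and totals equal (-1.01), Srebf1 and Srebf2 pass 0 with equal Plin1, and Nr1h3, Scap, Mlxipl, Insig2, Mlx and Nr1h2 lie on either side of 0 depending on the scaling.

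The genes that these factors are known to drive were compared as lists. As deposited, 3.12% of all genes compared were at least 2-fold lower and 3.88% at least 2-fold higher. Of 18 fatty acid synthesis targets of SREBP-1c and ChREBP 17 passed the minimum, 9 were at least 2-fold lower and 0 higher, with a median change of -2.06. Srebf1 itself was at -0.67 and Mlxipl at 0.05. Fasn had a change of -4.44, the most negative of the list, and Me1, which supplies NADPH as malic enzyme, was at 473.0 and 31.6. Lpin1, a phosphatidate phosphatase, had the most positive change of this list, 0.40. Of 21 sterol synthesis and uptake targets of SREBP-2 20 passed, 8 were at least 2-fold lower and 0 higher, with a median of -0.77 beside -0.59 for Srebf2. With equal adipocyte markers 5 were lower and 0 higher, with a median of -0.45, where 1.83% and 7.996% of all genes were. With equal Plin1 2 were lower and 1 higher, with a median of -0.089, where 1.15% and 24.0% of all genes were. Hmgcs1, an early enzyme of the pathway, was at 51.9 and 17.1, a change of -1.54 near that of Insig1, and the ratio of Insig1 to Hmgcs1 was 1.64 in WT and 1.51 in Postn-DTR.

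As deposited, several LXR targets of cholesterol efflux were higher in Postn-DTR, while ChREBP targets outside lipogenesis were mixed, with 3 changes below 0 and 5 above. Of 10 LXR targets 8 passed, 4 were at least 2-fold higher and 0 lower, with a median of 0.82, beside -0.28 for Nr1h3 and 0.30 for Nr1h2. The shares of all genes compared were 3.88% higher and 3.12% lower. With acinar genes removed and totals equal, 0 of the 8 LXR targets reached 2-fold and the median was 0.49, where 2.27% of all genes were higher and 5.68% lower. Abcg1, a cholesterol exporter, was at 6.85 and 16.8, and Apoe, a lipoprotein component made by macrophages and adipocytes, at 3922 and 9479. All 8 macrophage markers had a change above 0, with a median of 0.72 and 3 at least 2-fold higher, none was at 0, and their summed FPKM was 2906 in WT and 4682 in Postn-DTR. Their part in the values of the LXR targets was not tested. Of 9 glucose-responsive ChREBP targets 8 passed, 2 were at least 2-fold lower and 1 higher, with a median of 0.34 that was 0.013 with acinar genes removed and totals equal and 1.08 with equal Plin1. Slc2a4, the insulin-regulated glucose transporter, was at 44.8 and 13.7, and Khk, which phosphorylates fructose, at 13.2 and 35.2. Txnip, a classic glucose-induced target, was at 480.3 and 722.0. Pklr, on both the ChREBP and the fatty acid list, was listed at 0 in both libraries.

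**Figure D5:**
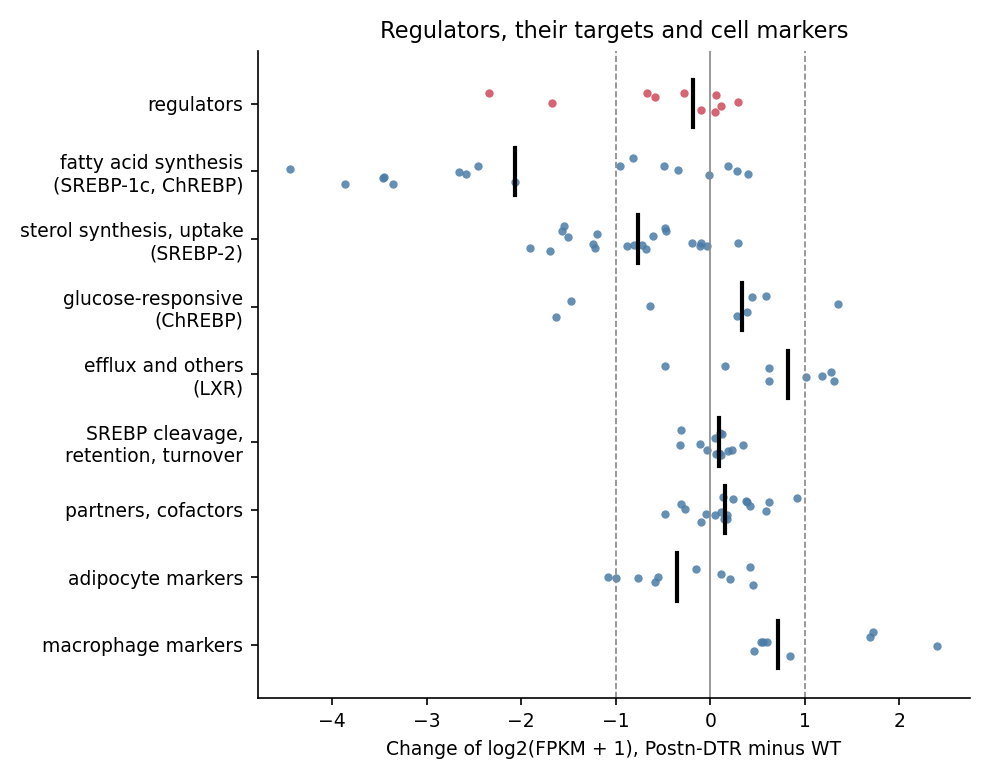
Change of each gene on the log2(FPKM + 1) scale, negative where Postn-DTR was lower, for each gene compared (points, spread vertically at random) in the regulators, in 4 lists of target genes, 2 lists of associated proteins and 2 lists of cell markers, with the list median as a black bar and dashed lines at 2-fold. Medians were -0.19 for the regulators, -2.06 for fatty acid synthesis, -0.77 for sterol synthesis and 0.82 for LXR targets, and the genes of SREBP cleavage all lie within the dashed lines.

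The genes of proteins that act on the regulators lay within 2-fold as deposited, as did most genes, of which 3.12% were lower and 3.88% higher by that much. Of 13 genes of SREBP cleavage, retention and turnover 0 reached 2-fold in either direction, with changes from -0.32 to 0.35 and a median of 0.09 that turned to -0.23 with acinar genes removed and totals equal. Mbtps1 (41.3 and 38.2) and Mbtps2 (3.38 and 3.67) encode the proteases that release SREBPs. Rnf139 (11.1 and 12.8) encodes a ubiquitin ligase of the endoplasmic reticulum. Of 18 partners and cofactors 0 reached 2-fold, with a median of 0.16 that turned to -0.15 under the same scaling. With equal Plin1, 1 of the 13 and 6 of the 18 were at least 2-fold higher, where 24.0% of all genes were. Rxra, the obligate partner of LXRs, was at 39.0 and 43.3. Thra, which encodes the thyroid hormone receptor alpha, was at 41.5 and 34.3, and Nfya, a subunit of NF-Y, had the most negative change of this list, -0.48.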

How the data were processed

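Whole omentum RNA from 2 libraries, WT and Postn-DTR, was sequenced, with a stranded TruSeq mRNA kit per the labels; the study's methods describe sorted cells and name NEBNext Ultra instead. The authors deposited FPKM, with each symbol listed once per library. The submitters' processing notes name TopHat2 2.1.1, Bowtie2 2.2.8, SAMtools 0.1.18, Cuffdiff 2.2.1 and mm10. The annotation, and whether counting used strand, are not given in the sources used here. Whether Cuffdiff also scaled the FPKM of the libraries to each other is not given either. Positions and lengths came from GENCODE M21 on GRCm38, the same assembly as mm10, and promoter sequences from RefSeq (GRCm38.p6), matched by symbol for 10 of 10 regulators.

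From the FPKM, the change of log2(FPKM + 1) was computed for genes with a mean of at least 1 (Python 3.11.15, pandas 2.3.3, scipy 1.17.1). No test was possible with 1 library per genotype. Depth is approximate. It was the denominator that made FPKM of low genes with 1 annotated transcript whole reads: 76.8% of 555 genes in WT and 75.8% of 534 in Postn-DTR came within 0.1 of a whole number, with lengths reduced by 200 bases. An FPKM of 1 in a 2 kb transcript was then about 41.6 reads in WT and 43.2 in Postn-DTR. Reads of a regulator used the median length of its coding transcripts. The steps were also run on simulated data with planted changes and counting error only. That simulation held no differences between mice or in scaling, so it cannot speak to those limits.

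The 10 regulators, the 6 pathway lists, the 7 marker lists and the motifs were chosen with earlier results of these data known. Genes named were all regulators, list members with the most negative or positive change or a leading place in their pathway, and the 3 genes nearest in level to each regulator past 2-fold. Genes of the fatty acid list with a CCAAT box were named too. Alternatives were other pseudocounts, minimums, scalings and thresholds; the scalings to adipocyte markers and to Plin1 were added after seeing the data. Genes overlapping on the same strand are Mir6921 and Mir6922 for Srebf1, Mir33 and Gm49502 for Srebf2 and Gm13783 for Nr1h3, and on the other strand Rai1 for Srebf1, Psmc3ip for Mlx and 1 gene each for Nr1h3, Scap, Mlxipl and Insig2, so their reads may be shared. Some genes of the pathway lists are not reported here by name.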

Additional observations from a re-analysis of the deposited data

How the results depend on the processing

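The number of regulators at least 2-fold lower stayed at 2 with pseudocounts of 0.1 and 5, without a minimum, with a minimum mean FPKM of 10, with median centring, an equal 75th percentile, equal adipocyte markers and a 3-fold threshold. The shares of all genes that were lower ran from 1.17% (3-fold) to 4.90% (pseudocount 0.1) under these settings. The number of regulators was 3 with acinar genes removed and equal totals, 4 at 1.5-fold, and 1 with Plin1 set equal. The shares of all genes were then 5.68%, 8.84% and 1.15%. With Plin1 set equal 1 regulator, Nr1h2 at 1.05, was at least 2-fold higher, as were 24.0% of all genes. The median change of the regulators, -0.19 as deposited, was -0.17 with a pseudocount of 5, -0.21 with median centring, -0.26 with an equal 75th percentile, -0.52 with acinar genes removed and equal totals, 0.16 with equal adipocyte markers and 0.56 with equal Plin1; a scaling shifts every gene by construction. Over the 9 alternatives that give a change, Thrsp ran from -2.68 to -1.58 and Insig1 from -2.01 to -0.94, both below 0 in all 9. Mlxipl and Insig2 turned below 0 with an equal 75th percentile (-0.026 and -0.014) and with equal totals, Mlx with equal totals, and Scap above 0 with equal adipocyte markers (0.24). No paired analysis was possible because each genotype had 1 library. Counting error was small beside the changes of Thrsp and Insig1, but the counting intervals of Mlxipl, Insig2 and Mlx included a ratio of 1. Without replicates none of the differences can be set against the variation between mice.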

Other observations

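The genes nearest in level to each regulator past 2-fold, by distance of log2(FPKM + 1) over the 2 libraries, were on none of the lists used here. Nearest to Insig1 were Plbd1, at 87.9 in WT and 31.5 in Postn-DTR, Ltb, which encodes lymphotoxin beta, at 69.3 and 23.6, and H2-DMb2, an MHC class II chaperone gene, at 66.3 and 28.5. Nearest to Thrsp were H2-Eb1, an MHC class II gene, at 796.2 and 381.6, Enpp2, which encodes autotaxin, at 598.1 and 360.4, and Serpinh1, a collagen chaperone gene, at 435.7 and 185.7. These distances were 0.27 to 0.38 for Insig1 and 1.02 to 1.18 for Thrsp, so few genes had the level and change of Thrsp. With 2 libraries such likeness is a description of 2 values per gene.

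In the 250 bases before the start, a CCAAT box was found for 12 of the 13 sterol synthesis and uptake genes that had a RefSeq window (92.3%), for 9 of 15 fatty acid synthesis genes (60.0%) and for 5 of 8 LXR targets (62.5%), and for 37.5% of all genes. High shares were not particular to these lists: the box was found for 5 of 6 glucose-responsive ChREBP targets and 4 of 4 hepatocyte markers. It was found for 1 of 8 genes of SREBP cleavage, retention and turnover and 4 of 21 acinar markers. The SRE core was found for Hmgcs1 alone among the 13 sterol genes and for 0 of the 15 fatty acid genes. Of the 9 fatty acid genes with a CCAAT box, Acss2, Fasn, Me1, Pnpla3 and Slc25a1 were at least 2-fold lower in Postn-DTR. Acacb (17.9 in WT and 13.9 in Postn-DTR), Elovl5 (67.1 and 66.7) and Gpam (24.9 and 28.5) lay within 2-fold, and Pklr was listed at 0 in both libraries. Hmgcs1, Idi1 and Nsdhl were among the sterol genes with the box, as was Mvd, which lay close to its WT level (14.3 and 13.4). Here too a gene counted if any of its windows held the motif. CCAAT boxes are common before genes of many kinds, and whether they bear on these changes was not tested.

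Other cell markers were compared beside the regulators. All 6 lymphocyte markers had a change below 0, with a median of -1.13, and a summed FPKM of 346.9 against 242.4. The 5 mesothelial markers had a median of 0.27, which turned to -0.063 with acinar genes removed and equal totals, and the 4 endothelial markers one of -0.25, which turned above 0 with equal adipocyte markers and with equal Plin1. Most of the 24 acinar markers that passed the minimum did so only through the WT library. Without a minimum, 24 of the 25 were at least 2-fold lower, with a median of -8.09, where 1.73% of all genes were. Of 5 hepatocyte markers 2 passed the minimum, Alb, at 2.17 in WT and 1.22 in Postn-DTR, and Cyp2e1, which adipose tissue also expresses, at 681.6 and 1205. The part of these cells in the values of the regulators was not tested.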
